A study of Mus musculus with 2 samples.

Results

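The tumour necrosis factor (TNF) superfamily consists of ligands, mostly trimeric proteins anchored in the cell membrane, and of the receptors that bind them. Its genes were taken as those whose only symbol in the platform annotation begins with Tnfsf or Tnfrsf and a digit, or is Tnf, Lta, Ltb, Ltbr, Cd27, Cd70, Cd40, Cd40lg, Fas, Fasl or Eda2r. Of 18193 named genes, 38 met this rule, and they were read by 60 probe sets. They were 13 ligands, 24 receptors and 1 opposite-strand transcript, Tnfsf13os. Some superfamily genes, among them Tnfsf15, Tnfsf18 and Tnfrsf26, were not analysed here.

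In T cells, receptors of this family act as costimulators: they receive a signal after antigen recognition that prolongs division and survival. Most receptors recruit TRAF adaptor proteins and switch on NF-kappaB, the transcription factor family of inflammation and lymphocyte survival, and those with a death domain can also start caspase-driven cell death. On B cells, a separate branch that binds the ligands BAFF and APRIL keeps mature B cells and plasma cells alive.

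Transcripts were measured on 2 arrays, 1 of T helper 2 (Th2) cells from Ecm1 knockout mice (Th2 KO) and 1 of Th2 cells from wild-type mice (Th2 WT), all of the C57BL/6 strain. Per the labels, the mice were female and were kept to 6 weeks of age, and spleen CD4 cells were isolated with an anti-CD4 antibody on magnetic columns. Both groups were cultured for 4 days on anti-CD3 with anti-CD28, IL-4, anti-IFN-γ and anti-IL-12. Ecm1 encodes a secreted extracellular matrix glycoprotein, and neither the deleted part of the gene nor the number of mice behind an array is given in the sources used here. With 1 array per group there is no replicate, so no difference below has a test, and each describes these 2 arrays only.

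Values are probe-set signal intensities on a linear scale. Signals under the median of their array (65.5 in Th2 KO and 69.2 in Th2 WT) were treated as below a floor, and a gene is called measured on an array where it reached the floor there. A difference is the log2 signal in Th2 KO minus that in Th2 WT, less its median of -0.10 over 20834 probe sets, so that 1 is 2-fold, and every fold below is after this centring. A gene is given by its brightest probe set, and a gene under the floor on 1 array has a bound set by that floor. The only internal error is an SD of 0.36 for 1 probe set. It is the SD, over 4657 genes, of the difference between the 2 brightest probe sets, divided by the square root of 2. It does not cover variation between animals, cultures or arrays. Ecm1 read 19.3 in Th2 KO and 29114.7 in Th2 WT, a bound of -8.69. Sample descriptions name liver, but the 3 hepatocyte genes examined (Alb, Apoa1 and Ttr) were under the floor on each array. The array labelled female knockout carried Y-linked transcripts, with Eif2s3y at 2214.4 in Th2 KO and 25.0 in Th2 WT, and the 3 Xist probe sets read 38.7% to 48.0% of their Th2 WT signal. The Th2 KO array thus read both Y-linked transcripts and Xist, the latter at 8715.3 in its brightest probe set. The sexes behind the arrays may therefore differ, and sex cannot be told apart from genotype.

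The cells on the arrays were not T cells alone, and the balance of cell type markers differed between them. All 6 measured T cell markers were lower in Th2 KO, from -0.52 (Cd3d) to -2.64 (Trat1), with a summed signal of 34854.7 in Th2 KO and 65210 in Th2 WT. All 5 measured B cell markers were higher, from 0.69 (Ms4a1) to 1.28 (Cd79b), while Pax5 was measured on neither array, and the summed signal with Pax5 was 23762.1 in Th2 KO and 13116 in Th2 WT. All 7 plasma cell markers were higher, from 0.94 (Prdm1) to 3.70 (Sdc1), with a summed signal of 98633.1 in Th2 KO and 44540.2 in Th2 WT. In such bulk samples, fewer cells of a type and less RNA per cell cannot be told apart.

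Of the 38 superfamily genes, 23 were measured on both arrays, 6 on 1 array and 9 on neither. Among the 23, 4 were higher in Th2 KO by 2-fold or more (Tnfrsf13c, Cd40, Tnf and Lta), 4 were lower by as much (Cd27, Tnfrsf25, Fas and Tnfsf10) and 15 lay within 2-fold. That is 34.8% of the 23 past 2-fold in either direction, where 11.6% of all 10144 genes measured on both arrays were (7.15% higher and 4.45% lower). Without centring the split was 3 higher and 5 lower, as Lta came to 0.96 and Tnfrsf14 to -1.06, and over all genes it was 587 higher and 611 lower in place of 725 and 451. By kind, 2 of 8 ligands were higher by 2-fold or more and 1 lower, and 2 of 15 receptors were higher and 3 lower. The superfamily median was -0.11, beside 0.04 over all genes, but its sign is not settled, as it was 0.14 with probe sets averaged and -0.26 with a raised floor. The SD of the superfamily differences was 1.04, beside 0.67 over all genes. Lta (1.06) and Tnfsf10 (-1.09) were just past the 2-fold limit, and Tnfrsf14 (-0.95) and Tnfrsf13b (0.88) just short of it. Of the 6 genes measured on 1 array, which differ by construction, 2 had a bound past 2-fold on the higher side (Tnfrsf17 and Tnfsf4) and 1 on the lower side (Fasl), where 9.37% and 4.46% of all such 1121 genes had. With a raised floor, none of Tnfrsf17, Tnfsf4 and Fasl was measured on either array. The plot of signals by role shows both readings of the 29 genes measured on at least 1 array.

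**Figure D1:**
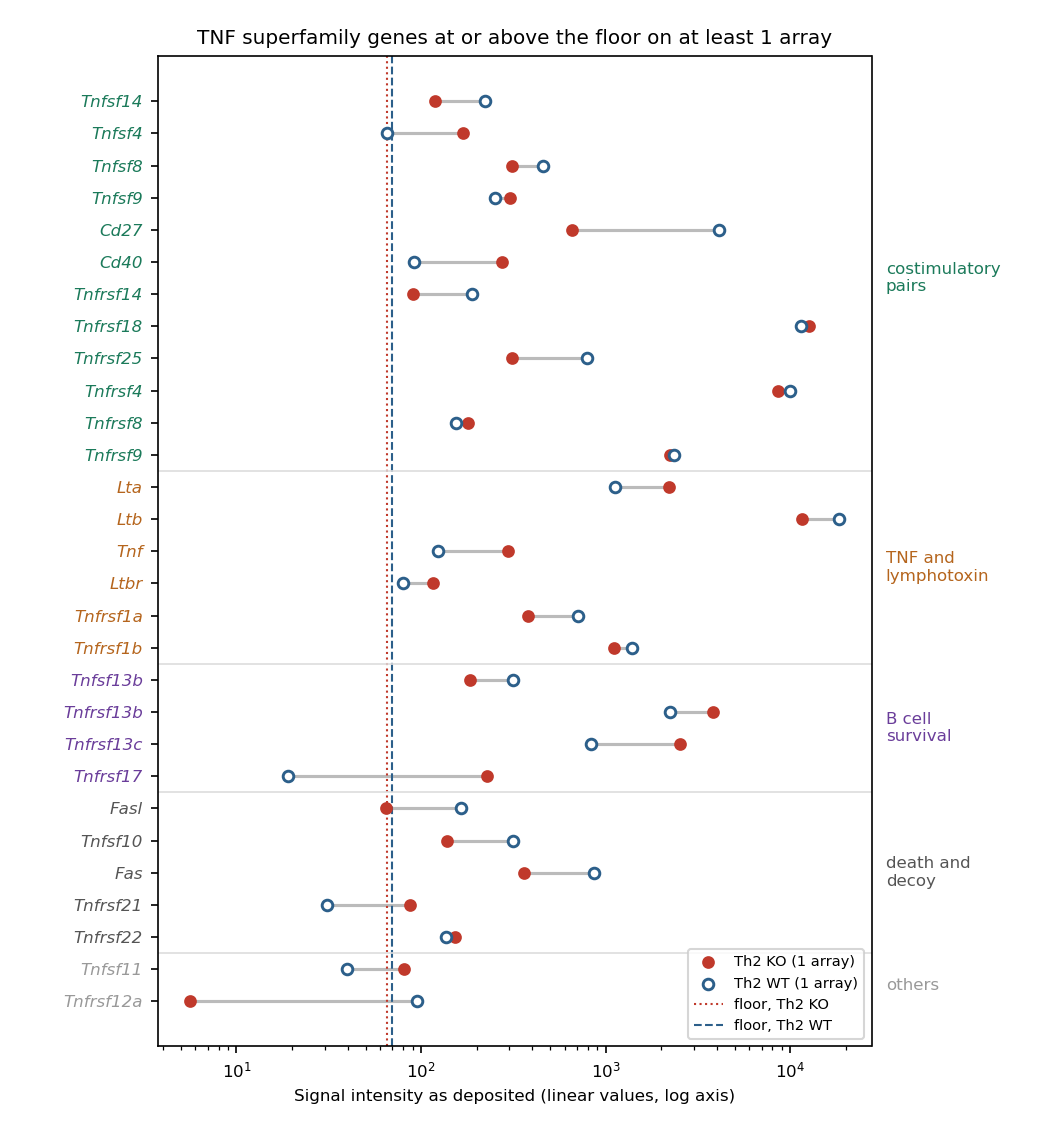
Signal intensity as deposited (log axis) of the 29 superfamily genes measured on either array, by role, with Th2 KO as filled and Th2 WT as open circles and the floors (65.5 and 69.2) as vertical lines. Cd27 has a wide gap with Th2 WT above, Tnfrsf13c one with Th2 KO above, and the circles of Tnfrsf4, Tnfrsf9 and Tnfrsf18 nearly touch.

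Costimulatory receptors of T cells did not move as a block. Cd27, a receptor of naive and memory T cells that supports their survival through its ligand CD70, read 660.0 in Th2 KO and 4087.7 in Th2 WT. That was 5.77-fold lower (-2.53), and 6 of the 10144 genes measured on both arrays were lower still. Its single probe set gives no second reading. Tnfrsf25 (death receptor 3), through which the cytokine TL1A costimulates effector T cells, read 309.7 in Th2 KO and 793.0 in Th2 WT, 2.38-fold lower (-1.25). Both lay within the range of the 6 T cell markers, whose median was -0.90. For Cd27 this rests on Trat1 (-2.64) alone, as the next lowest marker, Cd4, was at -1.59. Trat1 and Cd4 were lower than Tnfrsf25. The part of those markers in the 2 receptor values was not tested.

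The 4 receptors of activated T cells given next, Tnfrsf4, Tnfrsf18, Tnfrsf9 and Tnfrsf8, were close to equal. Tnfrsf4 (OX40), which sustains Th2 responses, read 8597.1 in Th2 KO and 9950.2 in Th2 WT (-0.11). Tnfrsf18 (GITR), found on activated and regulatory T cells, read 12619.9 in Th2 KO and 11470.3 in Th2 WT (0.24). Tnfrsf9, known as CD137, read 2239.9 in Th2 KO and 2351.7 in Th2 WT (0.03). Its other bright probe set stood at -0.35, and its dimmest was measured on neither array, so that the mean of all of them gave -1.23. Tnfrsf8 (CD30), an activation receptor of T cells, read 178.8 in Th2 KO and 154.0 in Th2 WT (0.32). These 4 lay above all 6 T cell markers on the scale of differences, since the highest of those, Cd3d, was at -0.52. Each of the 4 differences is under the probe-set SD of 0.36. Tnfrsf14 (HVEM), a receptor of resting lymphocytes, stood apart from them at 90.6 in Th2 KO and 188.4 in Th2 WT (-0.95).

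Among the ligands of these receptors, that of OX40 alone was past 2-fold. Tnfsf4 (OX40 ligand), which antigen-presenting cells use to drive T cells, read 168.5 in Th2 KO, while its Th2 WT signal of 65.6 lay just under the floor, a bound of at least 2.62-fold higher. Its receptor Tnfrsf4 was at -0.11 on the same arrays. Tnfsf14 (LIGHT) was lower with its receptor Tnfrsf14, at 119.1 in Th2 KO and 221.5 in Th2 WT (-0.79). Tnfsf8 (CD30 ligand) read 312.2 in Th2 KO and 459.7 in Th2 WT (-0.46), and Tnfsf9 (CD137 ligand) read 302.0 in Th2 KO and 250.7 in Th2 WT (0.37). Cd70, the CD27 ligand, and Cd40lg, the T helper signal to B cells, read 5.8 and 8.7 in Th2 KO and 6.7 and 10.1 in Th2 WT, below the floor. For Cd27 and Cd40 the ligand side thus had no difference to set beside the receptor's.

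**Figure D2:**
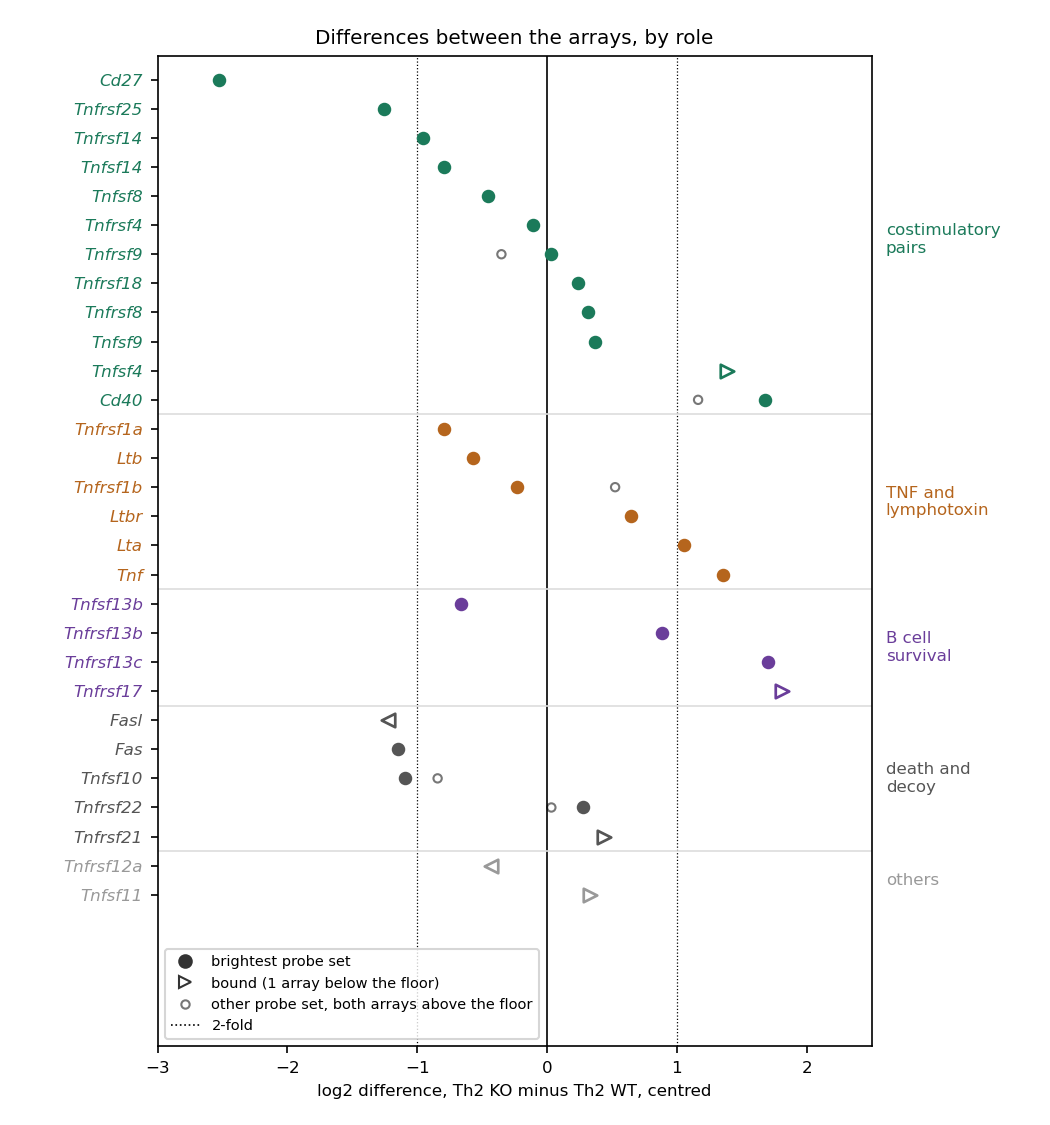
Centred log2 difference, Th2 KO minus Th2 WT, of the same 29 genes, sorted within each role. Filled circles are the brightest probe sets, open circles other probe sets measured on both arrays, triangles bounds, and dotted lines 2-fold. The costimulatory genes run from -2.53 (Cd27) to 1.68 (Cd40), the B cell survival receptors lie above 0, and Fas, Fasl and Tnfsf10 lie past 2-fold below 0.

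Of the 4 receptors of B lineage cells given next, Cd40 and Tnfrsf13c were higher in Th2 KO by 2-fold or more. Tnfrsf17 was so by its bound, and Tnfrsf13b was within 2-fold. In the plots by role, Cd40 stands with the costimulatory genes, and it is given here as a receptor of B cells. Cd40, the receptor on B cells and other antigen-presenting cells for T cell help, read 273.9 in Th2 KO and 91.7 in Th2 WT, 3.21-fold higher (1.68). A second probe set of Cd40 stood at 1.16, and the third was below the floor in Th2 WT, with a bound of 1.75. With the floor raised to the 70th percentile of each array, Cd40 and Tnfrsf17 were measured on neither array. Tnfrsf13c (BAFF receptor), on which mature B cells depend for survival, read 2513.5 in Th2 KO and 831.4 in Th2 WT, 3.25-fold higher (1.70). Tnfrsf17 (BCMA), the receptor of plasma cells, read 226.2 in Th2 KO and 19.0 in Th2 WT, where it was below the floor, at least 3.51-fold higher. Tnfrsf13b (TACI), which binds both BAFF and APRIL, read 3815.0 in Th2 KO and 2218.9 in Th2 WT (0.88). The ligand Tnfsf13b (BAFF), made mainly by myeloid and stromal cells, lay on the other side at 184.6 in Th2 KO and 313.3 in Th2 WT (-0.66). A second BAFF probe set, read at 71.9 in Th2 KO and 62.9 in Th2 WT, had a bound of 0.16, and the mean of all its probe sets gave 0.14, so its direction is not settled.

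Set beside the B cell markers, TACI lay within their range of 0.69 to 1.28, and Cd40 and the BAFF receptor lay above all 5. BCMA was at least 1.81 by its bound, where the plasma cell markers ran from 0.94 to 3.70. A minimum does not place it within that range. The part of these markers in the receptor values was not tested. The plot of receptors beside markers sets the groups next to each other.

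**Figure D3:**
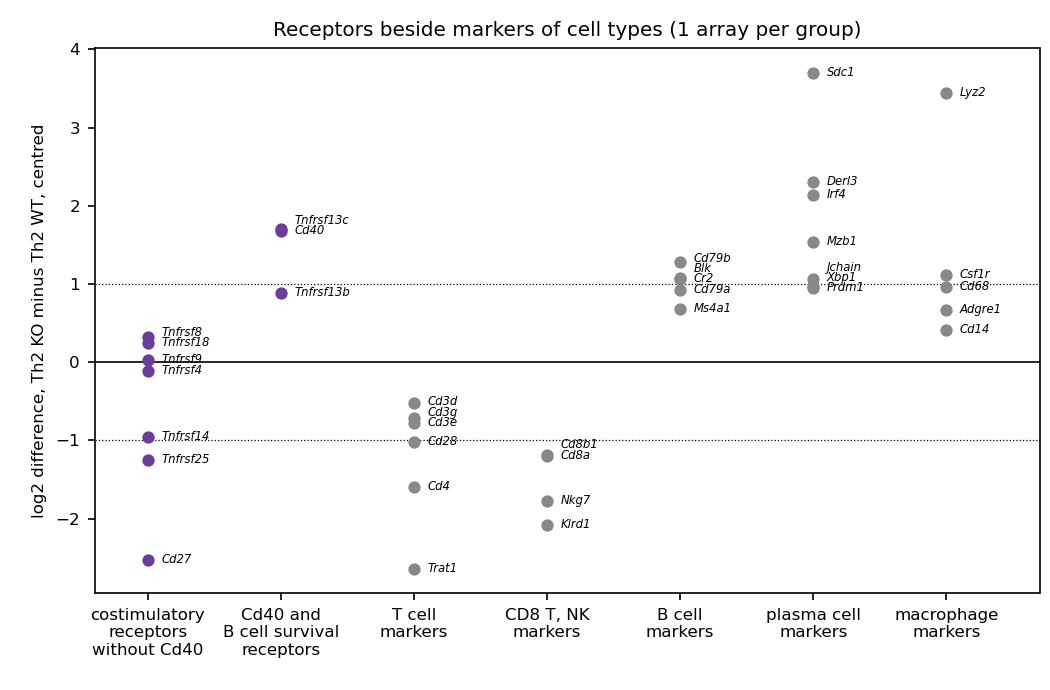
Centred log2 difference, Th2 KO minus Th2 WT, of costimulatory and B cell survival receptors (purple) and of cell type markers (grey). Each point is 1 gene measured on both arrays, and dotted lines mark 2-fold. The other receptors measured on both arrays (Fas, Ltbr, Tnfrsf1a, Tnfrsf1b and Tnfrsf22) are not drawn. Cd40 (1.68) and Tnfrsf13c (1.70) lie above the 5 B cell markers, Cd27 (-2.53) lies just above Trat1 (-2.64), and Tnfrsf4, Tnfrsf8, Tnfrsf9 and Tnfrsf18 lie around 0, above the T cell markers.

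Tnf, Lta and Ltb are neighbours on chromosome 17 with no other protein-coding gene between them, yet they differed in direction. Tnf, the main inflammatory cytokine of the family, read 296.0 in Th2 KO and 124.0 in Th2 WT, 2.56-fold higher (1.36), with a bound of 0.01 at the raised floor. Lta (lymphotoxin-alpha), secreted by activated lymphocytes, read 2188.7 in Th2 KO and 1128.9 in Th2 WT, 2.08-fold higher (1.06). Ltb (lymphotoxin-beta), which anchors lymphotoxin-alpha to the membrane of lymphocytes, read 11512.6 in Th2 KO and 18347.4 in Th2 WT, 1.48-fold lower (-0.57). Each had a single probe set. Macrophages also make Tnf, and all 5 macrophage and monocyte markers measured on both arrays were higher in Th2 KO, from 0.41 (Cd14) to 3.45 (Lyz2). Of these 5, 3 (Adgre1, Cd68 and Cd14) were within 2-fold. The summed signal over the 7 listed was 4043 in Th2 KO and 973.3 in Th2 WT, with Itgam measured on neither array. Lyz2 alone gave 2796.2 of this sum in Th2 KO and 275.5 in Th2 WT. The part of these markers in the Tnf value was not tested.

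The 250 bases before the annotated start of these genes are shown because adjacent genes lay on opposite sides of 0, and those of Tnfrsf17 because it had the highest bound of the family. They are RefSeq sequences of build GRCm38.p6 written from 5′ to 3′ on the gene's own strand: chr17:35202008-35202257 (minus strand) for Tnf, chr17:35205352-35205601 (minus) for Lta, chr17:35194257-35194506 (plus) for Ltb and chr16:11313559-11313808 (plus) for Tnfrsf17. Capitals mark matches on either strand to TATAAA (the letters of a TATA box, here at any position and on either strand). They also mark GGANNNTCC (a core of NF-kappaB sites that reads alike on both strands) and GAAANNGAA (a core of interferon response elements). No matches of different motifs overlap.
Tnf: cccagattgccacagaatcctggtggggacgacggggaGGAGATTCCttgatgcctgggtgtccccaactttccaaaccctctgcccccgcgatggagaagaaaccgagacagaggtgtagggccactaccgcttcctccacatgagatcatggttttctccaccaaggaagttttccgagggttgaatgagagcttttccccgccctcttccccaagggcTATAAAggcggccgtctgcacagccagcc
Lta: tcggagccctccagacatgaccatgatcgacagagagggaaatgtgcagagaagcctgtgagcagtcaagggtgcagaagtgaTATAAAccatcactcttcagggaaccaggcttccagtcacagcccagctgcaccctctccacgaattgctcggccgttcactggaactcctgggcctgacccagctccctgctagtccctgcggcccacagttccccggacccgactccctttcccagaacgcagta
Ltb: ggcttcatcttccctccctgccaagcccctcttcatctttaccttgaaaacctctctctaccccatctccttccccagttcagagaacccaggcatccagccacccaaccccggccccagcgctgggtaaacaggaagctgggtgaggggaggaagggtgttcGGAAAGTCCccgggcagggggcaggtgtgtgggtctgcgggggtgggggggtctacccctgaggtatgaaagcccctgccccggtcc
Tnfrsf17: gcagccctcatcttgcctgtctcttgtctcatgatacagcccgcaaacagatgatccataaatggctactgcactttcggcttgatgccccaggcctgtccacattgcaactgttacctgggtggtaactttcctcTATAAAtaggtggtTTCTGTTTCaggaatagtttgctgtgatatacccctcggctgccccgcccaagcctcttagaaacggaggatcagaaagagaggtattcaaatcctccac
Tnf held TATAAA from position -29 to -24 and Lta from -167 to -162, counted back from -1 at the base before the start. Ltb held no TATAAA in this window. GGANNNTCC stood in Tnf from -212 to -204 and in Ltb from -87 to -79, and in no other superfamily promoter searched. Tnfrsf17 held TATAAA from -114 to -109 and GAAANNGAA on the opposite strand from -100 to -92. Of the 38 genes, 29 matched the promoter table, with 33 promoters. TATAAA was in 18.2% of these and in 12.4% of all 32851 promoters, each searched over the same 250 bases. GGANNNTCC was in 6.06% and 7.27%, and GAAANNGAA in 18.2% and 7.13%. The 6 genes with GAAANNGAA were Tnfrsf1b, Tnfrsf4, Tnfrsf14, Tnfrsf17, Tnfsf8 and Tnfsf13b. A match is a description of letters, and no binding was measured.

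The receptors for TNF and lymphotoxin lay within 2-fold. Tnfrsf1a, the broadly expressed TNF receptor with a death domain, read 380.2 in Th2 KO and 707.3 in Th2 WT (-0.79). Tnfrsf1b, the TNF receptor of lymphocytes and myeloid cells, read 1108.3 in Th2 KO and 1394.4 in Th2 WT (-0.23). The other Tnfrsf1b probe set was at 0.53, and their mean at 0.15, so this gene had no settled direction. Ltbr, the lymphotoxin-beta receptor of myeloid and stromal cells, read 116.4 in Th2 KO and 79.9 in Th2 WT (0.65).

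Values of other neighbouring genes are given side by side. On chromosome 6, Cd27, Ltbr and Tnfrsf1a stand in that order with 1 other protein-coding gene between each pair, at -2.53, 0.65 and -0.79. On chromosome 4 the adjacent Tnfrsf4 and Tnfrsf18 were at -0.11 and 0.24, both under the probe-set SD, and the adjacent Tnfrsf1b, whose direction is not settled, and Tnfrsf8 at -0.23 and 0.32. On chromosome 1, where Tnfsf18 lies between them, Tnfsf4 had a bound of 1.39 and Fasl one of -1.22.

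Fas, its ligand Fasl and the death ligand Tnfsf10 were lower in Th2 KO. Fas, the death receptor that ends T cell responses, read 361.8 in Th2 KO and 858.6 in Th2 WT, 2.21-fold lower (-1.14). Fasl, its ligand on activated T and natural killer cells, read 64.9 in Th2 KO, just under the floor, and 164.1 in Th2 WT, at least 2.33-fold lower. Its second probe set had a bound of -0.36, and the mean of both a bound of -0.79. Tnfsf10 (TRAIL), a death ligand that interferons induce, read 137.4 in Th2 KO and 314.4 in Th2 WT, 2.13-fold lower (-1.09), with a bound of -0.09 at the raised floor. Its other probe sets were at -0.84 and at a bound of -0.23, on the same side of 0. CD8 T and natural killer markers, of cells that carry these ligands, were lower on the same array. All 4 measured on both arrays were past 2-fold, from -1.19 (Cd8b1 and Cd8a) to -2.09 (Klrd1), and Ncr1 was below the floor. Their summed signal was 1014.4 in Th2 KO and 2938.5 in Th2 WT, and their part in the death ligand values was not tested.

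The remaining receptors of this branch were dim. Tnfrsf22, a decoy receptor for TRAIL in mice, read 153.3 in Th2 KO and 135.7 in Th2 WT (0.28), with 0.03 in a second probe set. It is a close copy of its neighbour Tnfrsf23 on chromosome 7, so their signals may be shared. Tnfrsf21 (death receptor 6) read 87.2 in Th2 KO and 30.9 in Th2 WT, below the floor there (bound 0.44). Tnfrsf10b, the TRAIL death receptor, was measured on neither array.

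Outside these roles, Tnfsf11 (RANKL), the ligand that drives osteoclast formation, read 80.9 in Th2 KO and 39.8 in Th2 WT, under the floor there (bound 0.33). Tnfrsf12a, the receptor for TWEAK, read 5.6 in Th2 KO and 94.7 in Th2 WT, which against the floor gives only a bound of -0.43. Its other probe set was measured on neither array. The 9 genes measured on neither array were Cd40lg, Cd70, Eda2r, Tnfrsf10b, Tnfrsf11a, Tnfrsf11b, Tnfrsf19, Tnfrsf23 and Tnfsf13os, with signals from 5.8 to 59.3 in Th2 KO and from 6.7 to 54.6 in Th2 WT. A signal under the floor does not show that a transcript was absent.

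Genes of the signalling list mostly lay within 2-fold. The list also holds Eda, Edar, Ngfr and Relt, which are superfamily genes outside the rule on names. Of 48 listed genes, 44 were named on the array, and Traf3, Ripk1, Chuk and Nfkb1 were not analysed here. Eda, Edar, Edaradd and Ngfr were below the floor throughout, while Relt (-0.26) was measured on both arrays. Of the other 40, 3 were higher by 2-fold or more, 2 lower and 35 within 2-fold, which is 12.5% past 2-fold, near the 11.6% of all genes. Their median was -0.15, beside 0.04 over all genes. Tnfaip3 (A20), an NF-kappaB target that shuts off TNF receptor signalling, read 1780.7 in Th2 KO and 4202.0 in Th2 WT (-1.14). Ikbke, a kinase of the interferon and NF-kappaB pathways, read 1177.0 in Th2 KO and 3272.9 in Th2 WT (-1.37).

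The 3 higher genes were Traip, Siva1 and Mlkl. Traip, a ubiquitin ligase first found as a TRAF partner and known for its part in DNA replication, read 591.9 in Th2 KO and 237.0 in Th2 WT (1.42). Siva1, a death-promoting protein that binds the CD27 tail, read 1804.8 in Th2 KO and 939.1 in Th2 WT (1.05), with 0.97, 0.82 and 1.24 in its other probe sets, but was at 0.94 without centring and 0.78 after quantile normalization. Mlkl, the pore-forming protein of necroptosis, read 617.9 in Th2 KO and 329.6 in Th2 WT (1.01), which is 0.91 without centring and 0.98 with the raised floor.

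The adaptors that TNF receptors recruit lay within 2-fold. Traf1, itself an NF-kappaB target, was the lowest of them at 903.6 in Th2 KO and 1787.7 in Th2 WT (-0.88, with -0.42 in its other probe set). Map3k14 (NIK), the kinase by which CD40, the BAFF receptor and the lymphotoxin-beta receptor activate the alternative NF-kappaB pathway, read 214.0 in Th2 KO and 439.6 in Th2 WT (-0.94). Its other probe set was at -0.31, and without centring the gene came to -1.04, past 2-fold. Nfkb2 and Relb, the subunits of that pathway, were at 0.09 and -0.18, Traf2 at 0.08, and Nfkbia, the feedback inhibitor, at -0.10. The plot of the signalling list shows most of its genes close to 0.

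**Figure D4:**
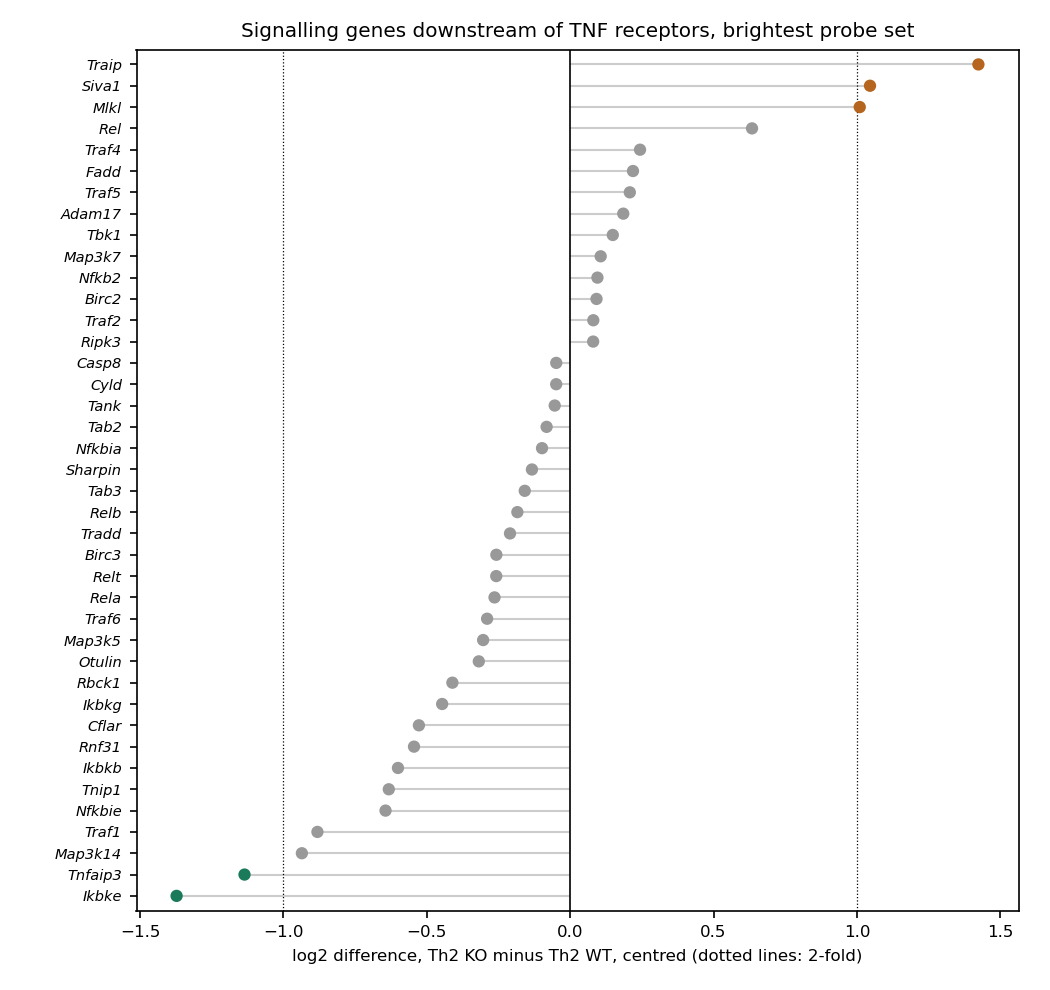
Centred log2 difference, Th2 KO minus Th2 WT, of the 40 genes of the signalling list measured on both arrays, from lowest (bottom) to highest. The superfamily receptor Relt is among them. Dotted lines mark 2-fold; Ikbke (-1.37) and Tnfaip3 (-1.14) lie past it below 0, and Mlkl, Siva1 and Traip (1.01 to 1.42) past it above 0.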

How the data were processed

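RNA of spleen CD4 cells cultured under Th2 conditions was labelled from 3 µg of total RNA with the one-cycle Affymetrix biotin assay, per the labels' protocols, and 1 array was read per group. The deposited values are linear signal intensities for 45101 probe sets. Which summarisation software the authors used is not given in the sources. Without the lowest and highest probe sets (the central 96%), both arrays had a mean of 500.004, but 75th percentiles of 423.4 in Th2 KO and 456.2 in Th2 WT, which shows a global scaling and no quantile normalisation. Such scaling lets a rise in bright transcripts lower the rest.

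Gene symbols came from the platform annotation: 34945 probe sets had 1 symbol, 932 several and 9160 none, and 64 were controls. Only those with 1 symbol named genes, and all 38 superfamily symbols were found in the RefSeq gene table (GRCm38.p6), which also gave neighbouring genes. The array files name no genome build.

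Signals were floored, taken to log2 and centred as described in the results, and the brightest probe set by mean log2 signal stood for its gene. No test between groups was possible with 1 array each, and the number of arrays limits the precision. Every superfamily gene is named, and signalling genes past 2-fold or with a large difference are named, with Nfkb2, Relb, Traf2 and Nfkbia added after their values were seen. The superfamily genes, the signalling and marker lists and the settings were chosen with earlier results of these data known. The 7 alternatives were no centring, quantile normalization, loess with span 0.3, a floor at the 70th percentile, no floor, the mean of all probe sets, and leaving out probe sets ending in _x_at or _s_at. The steps were tested on simulated data with changes well past 2-fold planted in bright genes only. That test does not cover dim genes or changes near 2-fold. Python 3.11.15, pandas 2.3.3, NumPy 2.4.6 and statsmodels 0.14.6 were used.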

Additional observations from a re-analysis of the deposited data

How the results depend on the processing

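No paired analysis was possible because there was only 1 array for Th2 KO and 1 for Th2 WT, and none could be left out. Of the 8 superfamily genes past 2-fold, 4 (Cd27, Tnfrsf25, Fas and Tnfrsf13c) stayed so under all 7 alternatives, and none of the 8 changed sign. Without centring, Lta fell under 2-fold (0.96), Tnfrsf14 passed it (-1.06), and 1 signalling gene was past 2-fold on the higher side in place of 3. On the lower side 3 signalling genes were past it in place of 2, as Map3k14 came to -1.04. A 70th-percentile floor left 13 superfamily genes measured on both arrays, 2 of them higher by 2-fold or more and 3 lower. There, Tnf had a bound of 0.01 and Tnfsf10 one of -0.09, while Cd40, Tnfrsf17, Tnfsf4 and Fasl were measured on neither array. At that floor, 1 of 37 signalling genes was higher by 2-fold or more. Of all 7360 genes measured on both arrays, 416 were higher and 285 lower. With no floor, which takes in dim signals, 8 of the 38 superfamily genes were higher by 2-fold or more and 7 lower. Of all 18193 genes, 2818 were higher and 2316 lower in that setting. With probe sets averaged, Tnfsf10 came to -0.99 and Tnfrsf9 to -1.23. There, 4 of 39 signalling genes were lower by 2-fold or more, Traf5 (-1.07) and Ikbkb (-1.29) among them. Over all genes, 398 of 9024 were lower by as much. The causes were not tested. Of the 23 superfamily genes measured on both arrays, 3 (Tnfrsf1b, Tnfrsf9 and Tnfsf13b) changed sign, each with probe sets averaged, and Tnfrsf9 (0.03) was also just under 0 uncentred (-0.07), quantile normalized (-0.04) and with the loess fit (-0.05). The superfamily median ran from -0.26 (raised floor) to 0.14 (probe sets averaged) and was 0.03 with no floor. Siva1 fell under 2-fold uncentred (0.94) and quantile normalized (0.78), and Mlkl uncentred (0.91), with the raised floor (0.98) and with none (0.99). Genes with signals near the floor are limited by it.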

Other observations

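Another 3 probe sets are annotated with several genes, at least 1 of them in the superfamily, and entered no value above. The one annotated with both Tnfrsf22 and Tnfrsf23 read 295.8 in Th2 KO and 353.6 in Th2 WT (-0.15), where the probe sets of Tnfrsf22 alone were at 0.28 and 0.03. The one annotated with Tnfsf12 and its fusion with Tnfsf13 read 128.8 in Th2 KO and 70.7 in Th2 WT (0.97), just above the Th2 WT floor. The third, annotated with Tnfsf12, Tnfsf13 and the fusion, was measured on neither array.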
